A study of Canis lupus familiaris with 25 samples.

Results

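The genes described here are 46 genes known from the endothelium of blood and lymphatic vessels, from the ligands that act on it, and from the adhesion molecules by which it holds white blood cells. They were found by name among the 24532 genes of the deposited count table, where 45 of the 46 were present, and LMO2 was not analysed here because no row carried that symbol. The counts came from QuantSeq 3′ libraries, which read each transcript near its polyadenylated end, made from RNA of formalin-fixed, paraffin-embedded (FFPE) tumors of pet dogs of various breeds. The 10 hepatoid gland adenomas (HGA), benign tumors of the modified sebaceous glands around the anus, came from 4 neutered and 6 intact dogs aged 8 to 14 years. The 11 primary apocrine gland anal sac adenocarcinomas (AGASAC), malignant tumors of the anal sac, came from 9 neutered and 2 intact dogs aged 8 to 12.5 years. The 4 metastases, from the sublumbar lymph nodes of the dogs of AGASAC 1 to 4, came from 3 neutered and 1 intact dog aged 8 to 10 years. No treatment is named in the labels for any group, and each library was made from whole sections trimmed of adjacent tissue, so it holds the RNA of tumor cells, vessels, stroma and, in the metastases, any remaining node together.

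Endothelial cells line all vessels and seal them with junction proteins such as VE-cadherin and claudin-5. Vascular endothelial growth factors (VEGF) drive their growth through receptor tyrosine kinases, with VEGFA acting mainly on blood vessels and VEGFC, once its propeptide is cleaved, on lymphatic vessels. Angiopoietins act through the Tie receptors, on which ANGPT1 stabilises vessels and ANGPT2 makes them responsive to growth signals, while transcription factors of the ERG and SOXF families set endothelial identity and PROX1 sets the lymphatic one.

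HGA libraries held 1562347 to 6389555 counts on genes, those of primary AGASAC 2581453 to 4218340 and those of the metastases 2857541 to 3289546, with medians of 2506085, 2950459 and 3102626. Levels are given as CPM, the counts of a gene scaled to a common library size. Where a gene had no count, its level could still be as high as 3 counts, or 0.539 to 1.88 CPM in HGA, 0.720 to 1.04 CPM in primary AGASAC and 0.791 to 0.957 CPM in the metastases, for counting error only. The labelled tumor types were described with 2 short marker lists. These lists came from earlier results of these data, so they are no independent check of the labels. The markers of hepatoid gland cells (KRT79, CIDEA and TGM5) summed to 2506 to 5156 CPM in 9 HGA, to 440 CPM in HGA 10 and to 0 to 0.342 CPM in primary AGASAC, and those of apocrine gland cells (KRT8, KRT19 and PIP) to 0 to 1.88 CPM in HGA and 2666 to 8254 CPM in primary AGASAC. Several libraries stood apart in the endothelial genes. HGA 4, the shallowest library, was the highest HGA in 17 of 45 members and HGA 9 the lowest in 20 of 45, while metastasis 2 was the highest metastasis in 29 of 45 and metastasis 1 the lowest in 28 of 45.

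The first comparison set the benign against the malignant primary tumors. The members that passed the test as higher in HGA were led by the growth factor genes VEGFC at 29.4-fold and VEGFB at 9.16-fold and the transcription factor SOX7 at 13.1-fold, and followed by receptors, a ligand and surface proteins of the vessel wall at 2.36-fold to 4.51-fold. Of 37 members that passed the filter on low counts, 13 were higher and 1, PROX1, was lower in HGA (edgeR's quasi-likelihood test with a Benjamini-Yekutieli adjusted p no higher than 0.05 and a log2 fold change, log2FC, of at least 1 in either direction). Among all 12070 genes tested, 12.6% were called higher and 12.5% lower, so that 25.1% of all genes passed, against 35.1% and 2.70% of the tested members. The log2FC was positive in 31 of the 37 members, with a median of 1.35 where the median of all genes was −0.03. With Benjamini-Hochberg adjustment in place of Benjamini-Yekutieli, 22 members (59.5%) and 30.9% of all genes passed. Only VEGFC and SOX7 had groups that did not overlap, 5.41% of the tested members, while 9.24% of all genes did not overlap. When libraries were scaled by their size alone, the log2FC of all genes shifted by −0.30 in the median, 32.8% in place of 50.2% of all calls were higher in HGA, and 9 members were higher and 1 lower, with a member median of 1.09. The remaining 8 members (ROBO4, ICAM2, TEK, APLN, TAL1, STAB2, SELE and SELP) had too few counts for the test. In such bulk samples, the number of endothelial cells, the RNA per endothelial cell and RNA from tumor or other cells cannot be told apart.

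**Figure D1:**
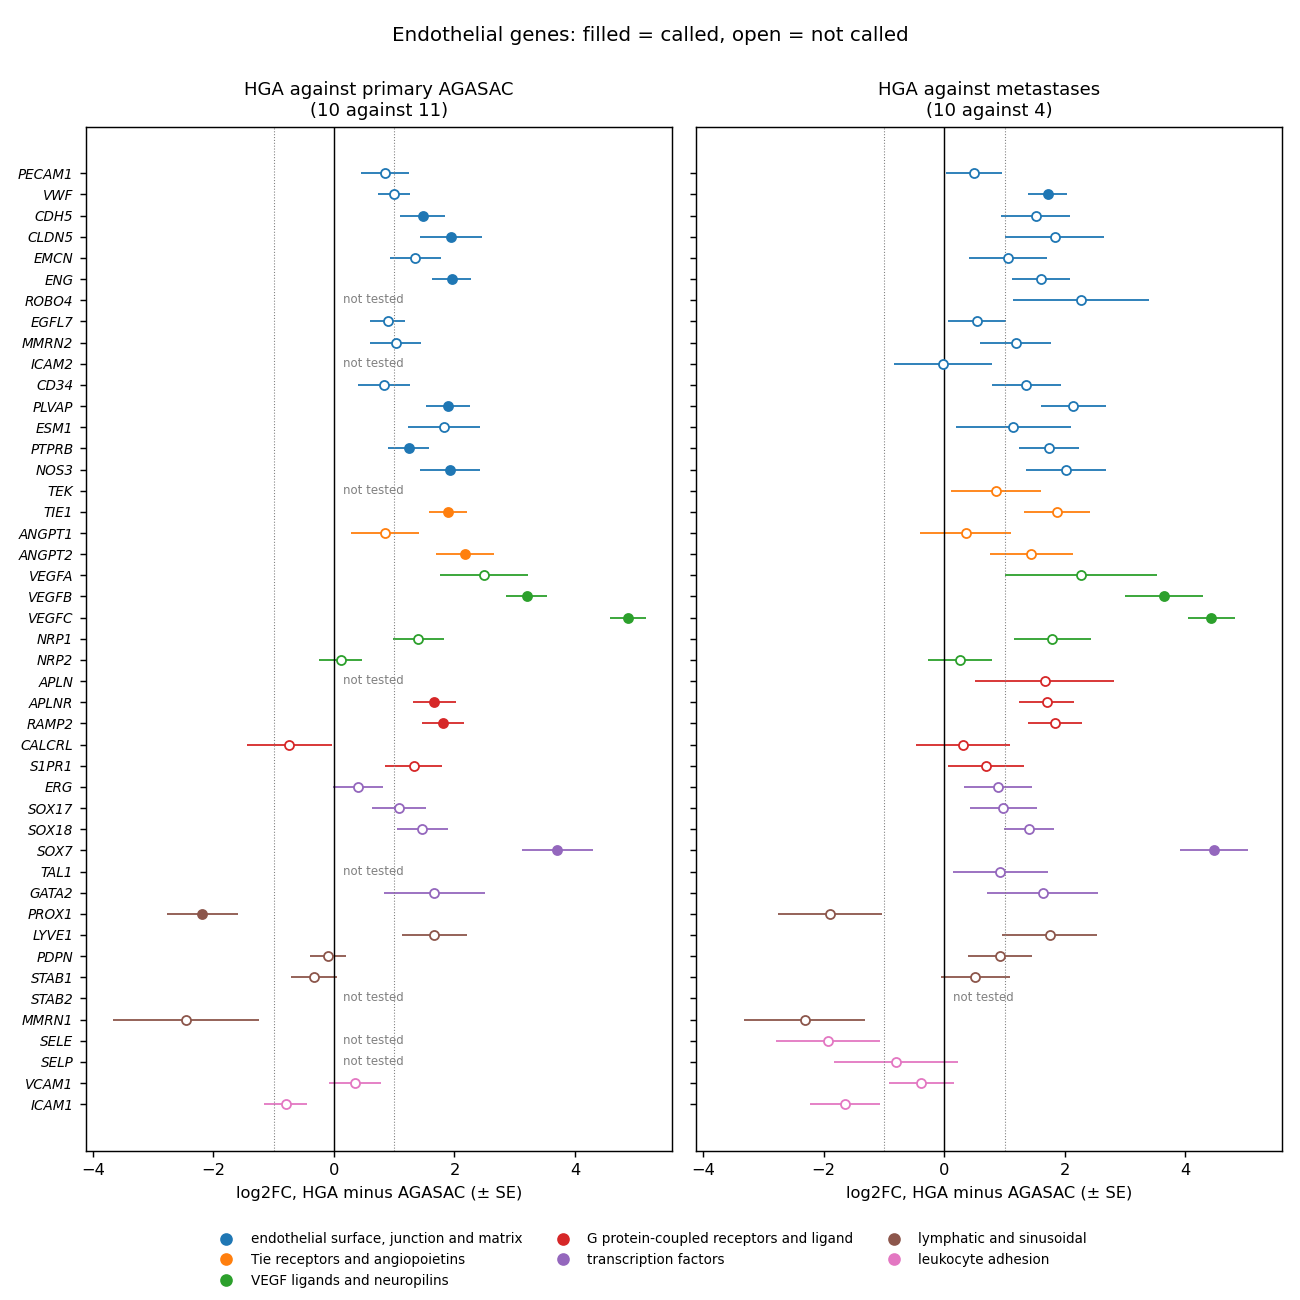
Log2FC (x axis) of each tested member, with its SE as a bar, in HGA against primary AGASAC and in HGA against the metastases, coloured by role. Filled points passed the test and the dotted lines mark a log2FC of −1 and 1. Values above 0 are higher in HGA. The points of VEGFC, VEGFB and SOX7 lie farthest to the right in both panels, and 31 of 37 members lie above 0 in the first panel and 37 of 44 in the second.

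Technical variables ran along with this contrast. By the naming of the sequencing files, 9 of the HGA and 3 of the primary AGASAC belonged to one series and 1 HGA and 7 primary AGASAC to another, with 1 primary AGASAC of unknown series, so series and tumor type can hardly be told apart. Within the first series 5 of 43 tested members were called (11.6%), where 16.1% of all genes were. Within extraction batches 5, 6 and 8, which held enough tumors of both kinds, 2, 3 and 2 members were called (5.26%, 7.14% and 4.65% of those tested), where 2.12%, 4.84% and 2.46% of all genes were. The share of RNA fragments above 200 bases, a measure of RNA integrity, was 70.5% to 92.7% in HGA (median 72.95%) and 70.2% to 84.4% in primary AGASAC (median 76.0%). Other cells of the tumor bed were measured with marker lists. Pericytes, the contractile cells that wrap small vessels, had 5 tested markers, of which RGS5, ABCC9 and MCAM were higher in HGA at a log2FC of 1.81, 1.69 and 1.34. Neither PDGFRB, at a log2FC of 0.67, nor CSPG4, at −1.38 (3.39 CPM in HGA and 8.78 CPM in primary AGASAC in the mean), passed. The whole list of 10 summed to 87.3 to 522 CPM in HGA and 41.5 to 133 CPM in primary AGASAC. Of the 21 fits that each left out 1 tumor, 13 lost the call of ABCC9 (those without AGASAC 1, 3, 5, 6, 7, 8, 9 or 11 or HGA 3, 4, 7, 8 or 10) and 4 that of MCAM (AGASAC 3 or 8 or HGA 1 or 4). None of 10 fibroblast markers passed the test, and their sum was 1290 to 5930 CPM in HGA and 1055 to 8029 CPM in primary AGASAC. Squamous epithelial markers, in contrast, summed to 3598 to 14034 CPM in HGA and 85.9 to 250.0 CPM in primary AGASAC. Of 7 tested squamous markers 5 were higher in HGA. Called higher were 71.4% of the squamous and 60% of the pericyte markers tested, where 12.6% of all genes were. HGA 9, the lowest HGA in 20 of 45 members, also held the lowest pericyte and fibroblast sums among HGA and the highest squamous sum. It was the library with 92.7% of fragments above 200 bases. HGA 4, the highest HGA in 17 of 45 members, held the highest pericyte sum. The part of these traits in the endothelial levels was not tested.

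The surface, junction and matrix proteins of the endothelium include its most used markers. All 13 of the tested genes of this kind had a positive log2FC (median 1.35), and 6 were higher in HGA (46.2%). Of all genes tested, 48.5% had a positive log2FC and 12.6% were called higher. Their summed level, over 15 genes, was 358 to 1278 CPM in HGA (median 525) and 118 to 417 CPM in primary AGASAC (median 251). The most different was ENG, endoglin, a co-receptor for transforming growth factor beta. ENG ranged from 16.6 to 120 CPM in HGA (median 50.3) and from 4.65 to 31.5 CPM in primary AGASAC (median 15.2). The lowest HGA, HGA 10, lay within the range of the AGASAC, and the other 9 HGA lay above it. The mean level of ENG was 61.0 ± 32.8 CPM (SD, n = 10) against 15.7 ± 7.54 CPM (SD, n = 11), a log2FC of 1.95 ± 0.32 (SE, adjusted p = 0.000269).

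PLVAP encodes the protein that forms the diaphragms of fenestrated endothelium. Its level was 25.3 to 178 CPM in HGA (median 45.97) and 6.48 to 36.5 CPM in primary AGASAC (median 15.9). HGA 4 and HGA 7 were the high samples at 178 and 158 CPM, and HGA 5 was the only HGA within the range of the AGASAC. PLVAP was 3.69-fold higher in HGA (log2FC 1.89 ± 0.37, SE, adjusted p = 0.00173).

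CDH5 and CLDN5 encode VE-cadherin and claudin-5 of the endothelial junctions. CDH5 was at 5.24 to 67.1 CPM in HGA (median 30.0) and 3.84 to 28.2 CPM in primary AGASAC (median 8.68), which overlapped, and was 2.78-fold higher in HGA (log2FC 1.47 ± 0.37, SE, adjusted p = 0.0239). The call of CDH5 was lost without HGA 3 or without HGA 4, at an adjusted p of 0.0543 and 0.0623. CLDN5 was at 0 to 26.5 CPM in HGA (median 10.9) and 0.896 to 7.47 CPM in primary AGASAC (median 1.92). HGA 9 had no count of CLDN5 and HGA 10 had 3.06 CPM, while HGA 6 at 7.37 CPM lay just under the highest AGASAC and the other 7 HGA above it. CLDN5 was 3.85-fold higher in HGA (log2FC 1.95 ± 0.51, SE, adjusted p = 0.0322), and the adjusted p rose to between 0.0535 and 0.0889 without any one of HGA 2, 3, 5 or 7 or of AGASAC 1, 3, 7, 9, 10 or 11.

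NOS3, the endothelial nitric oxide synthase that relaxes the vessel wall, and PTPRB, the tyrosine phosphatase that acts on the Tie2 receptor and on VE-cadherin, were also higher in HGA. NOS3 was at 4.36 to 30.3 CPM in HGA (median 11.4) and 0 to 8.20 CPM in primary AGASAC (median 2.90), 3.80-fold higher (log2FC 1.93 ± 0.50, SE, adjusted p = 0.0289). PTPRB was at 17.2 to 118 CPM in HGA (median 37.7) and 5.98 to 37.6 CPM in primary AGASAC (median 14.4), 2.36-fold higher (log2FC 1.24 ± 0.34, SE, adjusted p = 0.0419). The ranges of both genes overlapped, and HGA 7 held the highest value of both. These calls were close to the threshold. For NOS3 the adjusted p was 0.0502 to 0.0911 without any one of AGASAC 2, 4 or 10 or HGA 1 or 7, and for PTPRB it was 0.0545 to 0.146 in 15 of the 21 fits that left out 1 tumor (AGASAC 1, 2, 3, 4, 7, 8, 10 and 11 and HGA 1, 3, 4, 5, 6, 7 and 9).

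The classical markers VWF and PECAM1 differed less. VWF, the clotting factor carrier stored in endothelial granules, was at 86.5 to 282 CPM in HGA (median 123) and 28.9 to 164 CPM in primary AGASAC (median 54.2). AGASAC 9 and AGASAC 11, at 164 and 112 CPM, were the 2 AGASAC within the range of the HGA. With a log2FC of 0.997 ± 0.272 (SE, adjusted p = 0.0423), VWF passed the threshold on the p but missed the one on the fold, and it was called in 6 fits that each left out 1 tumor (AGASAC 9 or 11, or HGA 1, 2, 4 or 10), at a log2FC of 1.02 to 1.22. PECAM1, a junction protein that platelets and leukocytes also carry, was at 23.1 to 149.5 CPM in HGA (median 63.4) and 9.64 to 145 CPM in primary AGASAC (median 31.4). Both groups held 1 high sample, HGA 7 at 149.5 CPM and AGASAC 3 at 145 CPM. The log2FC of PECAM1 was 0.84 ± 0.40 (SE, adjusted p = 0.857), and 1.33 with an adjusted p of 0.0172 without AGASAC 3.

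The other tested genes of this kind did not pass the test, with a log2FC between 0.83 for CD34 and 1.83 for ESM1. CD34, a sialomucin that is also found on progenitor and some stromal cells, was called without AGASAC 6 (log2FC 1.39, adjusted p = 0.0178), and EGFL7, a secreted protein of sprouting vessels, without AGASAC 9 (log2FC 1.11, adjusted p = 0.0162). ESM1, endocan, a proteoglycan of endothelial tip cells that VEGFA induces, was at 5.24 to 38.4 CPM in 9 HGA and at 351 CPM in HGA 4, against 3.99 to 30.2 CPM in primary AGASAC. Its mean in HGA, 53.3 ± 105 CPM (SD, n = 10), thus rested on 1 tumor, and its adjusted p was 0.143.

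Of the Tie receptors and angiopoietins, TIE1 and ANGPT2 were higher in HGA, ANGPT1 did not pass the test, and TEK had too few counts. TIE1 encodes the Tie receptor that has no well known ligand of its own and modulates Tie2. TIE1 was at 14.5 to 60.8 CPM in HGA (median 22.4) and 2.69 to 14.7 CPM in primary AGASAC (median 6.44). Its groups met at their ends, since the lowest HGA (number 6) lay less than 1 CPM below the highest of the AGASAC (also number 6). TIE1 was 3.72-fold higher in HGA (log2FC 1.89 ± 0.31, SE, adjusted p = 0.00027). TEK, which encodes Tie2, was at 1.31 to 19.8 CPM in HGA (median 4.56) and 0 to 9.90 CPM in primary AGASAC (median 2.27).

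ANGPT2, the angiopoietin that endothelial cells store and release on activation, was at 0.923 to 31.4 CPM in HGA (median 12.6) and 0 to 5.47 CPM in primary AGASAC (median 2.63). HGA 4 was again the highest sample and HGA 2 was the only HGA below 7 CPM. The difference was 4.51-fold (log2FC 2.17 ± 0.48, SE, adjusted p = 0.00638). ANGPT1, which comes from pericytes and other cells around the vessel, was at 0 to 16.7 CPM in HGA (median 6.96) and 0 to 9.42 CPM in primary AGASAC (median 4.81), with a log2FC of 0.85 ± 0.57 (SE, adjusted p = 1). The groups of ANGPT1 overlapped over most of their range.

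Of all tested members, VEGFC had the largest log2FC. VEGFC was at 70.2 to 143 CPM in HGA (median 102) and at 0.864 to 7.22 CPM in primary AGASAC (median 3.25). Every HGA lay far above every AGASAC, and the spread among HGA was small. The mean was 105 ± 23.3 CPM (SD, n = 10) against 3.54 ± 2.09 CPM (SD, n = 11), a 29.4-fold difference (log2FC 4.88 ± 0.29, SE, adjusted p = 6.8e-11). Within each of the 4 extraction batches or file-naming series that held enough tumors of both kinds, VEGFC was also called higher, at a log2FC of 4.1 to 5.9.

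VEGFB, a ligand of VEGFR1 that is known for its role in the uptake and use of lipids more than in the growth of vessels, was at 35.8 to 318 CPM in HGA (median 252) and 8.39 to 49.0 CPM in primary AGASAC (median 23.1). The overlap came from 1 HGA, since HGA 10 at 35.8 CPM lay under AGASAC 9 at 49.0 CPM, while the other 9 HGA had at least 119 CPM. HGA 10 was also the library with the low sum of hepatoid markers, whose part in its level of VEGFB was not tested. VEGFB was 9.16-fold higher in HGA (log2FC 3.20 ± 0.34, SE, adjusted p = 5.53e-07).

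VEGFA, the main growth factor of blood vessels, differed from both. It was at 11.0 to 1165 CPM in HGA (median 27.3) and 7.98 to 40.3 CPM in primary AGASAC (median 28.8). One tumor, HGA 4, held 1165 CPM, the next highest HGA had 124 CPM, and the medians of the groups were nearly the same. The log2FC of VEGFA was 2.48 ± 0.73 (SE, adjusted p = 0.0730), 0.39 with an adjusted p of 1 without HGA 4, and 2.62 with an adjusted p of 0.0467 without HGA 5. The summed level of 15 hypoxia genes was also highest in HGA 4, at 2208 CPM against 1003 to 1297 CPM in the other HGA, and its part in the level of VEGFA was not tested. The neuropilins, co-receptors of VEGF and semaphorins, did not pass the test: NRP1 had a log2FC of 1.40 ± 0.42 (SE, adjusted p = 0.0785), and NRP2 had one of 0.11 ± 0.36 (SE, adjusted p = 1). NRP1 was called without AGASAC 9, HGA 9 or HGA 10, at a log2FC of 1.53 to 1.70, and the sign of NRP2 turned when libraries were scaled by their size alone.

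**Figure D2:**
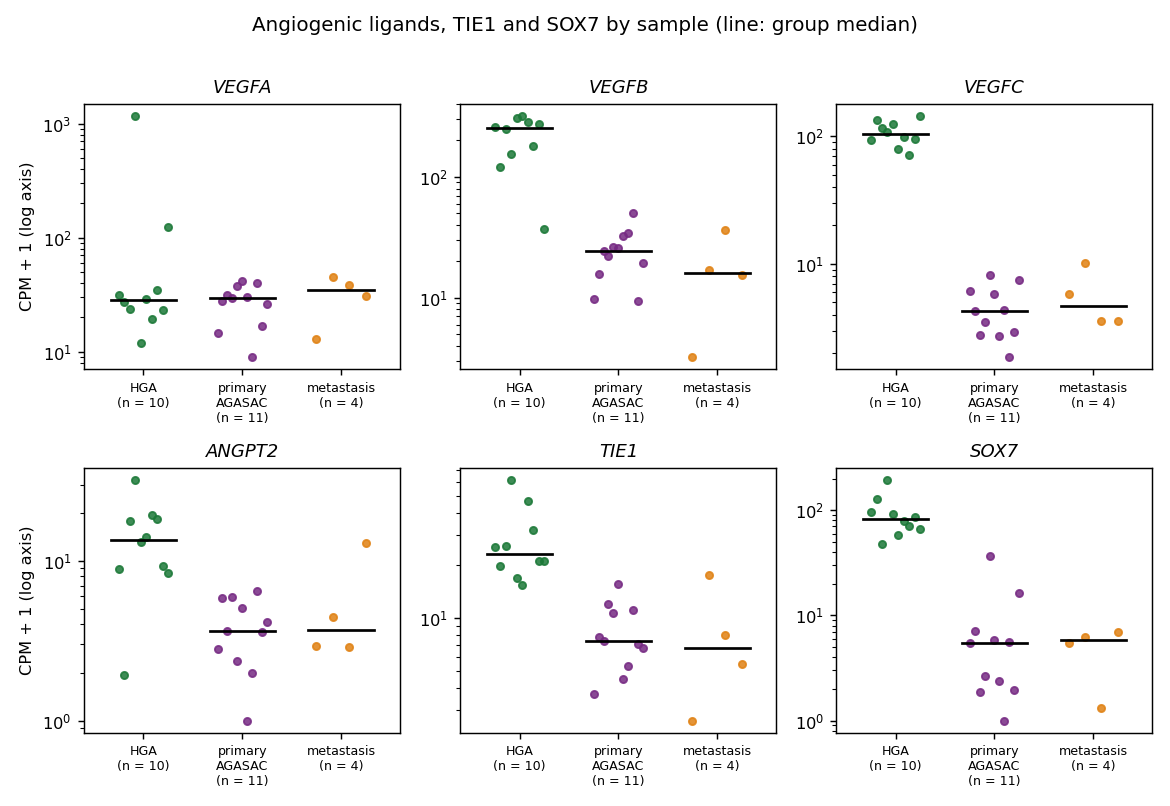
Level in CPM + 1 (log axis) of VEGFA, VEGFB, VEGFC, ANGPT2, TIE1 and SOX7 in each sample of HGA, primary AGASAC and metastases; each point is a sample and each line the median of its group. VEGFC and SOX7 of all 10 HGA lie above all other samples, whereas the medians of VEGFA, 27.3 and 28.8 CPM in HGA and primary AGASAC, lie side by side and HGA 4 stands alone at 1165 CPM.

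Genes that act beside these ligands were described from further lists. Of 15 tested genes of VEGF receptors, Notch signaling and arteries and veins, 4 were higher and 0 lower in HGA. That is 26.7% of those tested, where 25.1% of all genes were called, so the count over both directions is near the background. Of all genes, 12.6% were called higher in HGA. EFNB2, the ephrin that marks arterial endothelium, was at 5.05 to 18.8 CPM in HGA and 0 to 1.62 CPM in primary AGASAC, where 8 of 11 tumors had no count (log2FC 4.90 ± 0.63, SE, adjusted p = 8.97e-06). The Notch ligand JAG1 was 6.16-fold and the receptor NOTCH1 2.83-fold higher. FLT4, which encodes VEGFR3, the receptor of VEGFC, was at 14.8 to 59.8 CPM in HGA (median 28.5) and 8.54 to 23.7 CPM in primary AGASAC (median 14.3), 2.09-fold higher (log2FC 1.06 ± 0.24, SE, adjusted p = 0.00815). Without HGA 3 the log2FC of FLT4 was 0.92 and without HGA 8 it was 0.97, under the threshold on the fold. The VEGFA receptors KDR and FLT1 were not called, at a log2FC of 0.99 (adjusted p = 0.197) and 0.97 (adjusted p = 0.0892).

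Of 6 other lymphatic genes tested, ADAMTS3, CCL21 and FLT4 were higher and NFATC1 was lower in HGA. Called were thus 66.7% of those tested, where 25.1% of all genes were. ADAMTS3, the protease that cleaves the VEGFC propeptide, was at 17.6 to 129 CPM in HGA (median 32.5) and 0 to 2.05 CPM in primary AGASAC (median 0.299), where no tumor had more than 7 counts. The groups did not overlap (log2FC 6.37 ± 0.59, SE, adjusted p = 6.99e-08). CCBE1, the cofactor of that cleavage, had too few counts for the test, at 0 to 4.25 CPM in HGA and 0 to 1.94 CPM in primary AGASAC. CCL21, the chemokine by which lymphatic endothelium and node stroma draw in dendritic cells and T cells, was at 5.68 to 129 CPM in HGA (median 42.9) and 0 to 7.47 CPM in primary AGASAC (median 2.39), 19.4-fold higher (log2FC 4.28 ± 0.59, SE, adjusted p = 2.64e-05). HGA 10 was the only HGA within the range of the AGASAC. NFATC1, a transcription factor of lymphatic valves, had a log2FC of −1.16 (adjusted p = 0.0422) that lost its call in 11 fits that left out 1 tumor (AGASAC 4, 5, 7, 8, 9, 10 or 11 or HGA 3, 5, 6 or 7).

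**Figure D3:**
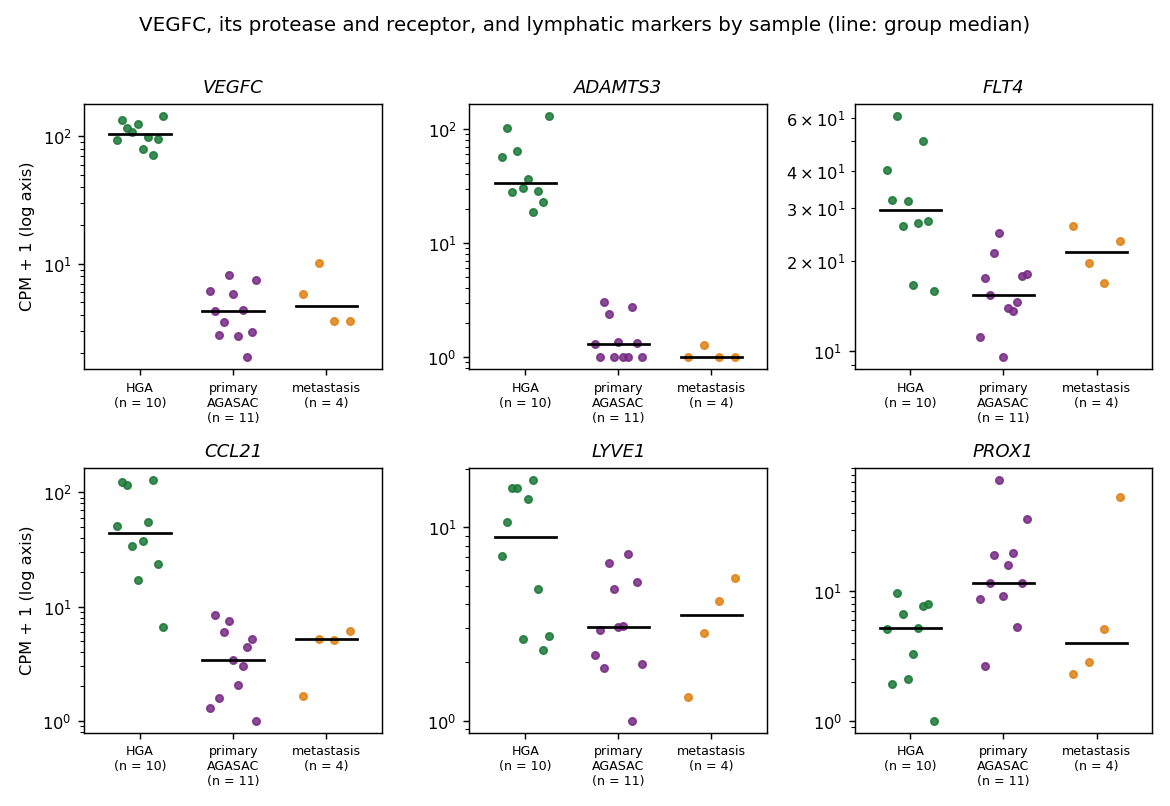
Level in CPM + 1 (log axis) of VEGFC, its protease ADAMTS3, its receptor FLT4 and the lymphatic genes CCL21, LYVE1 and PROX1 in each sample; each point is a sample and each line a group median. ADAMTS3 is at 17.6 to 129 CPM in HGA and at most 2.05 CPM in primary AGASAC, while PROX1 runs the other way, at most 8.63 CPM in HGA and up to 72.2 CPM in primary AGASAC.

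Among the receptors coupled to G proteins, APLNR and RAMP2 were higher in HGA. APLNR encodes the receptor of apelin on veins and sprouting vessels, and RAMP2 the protein that turns the calcitonin receptor-like receptor, CALCRL, into the receptor of adrenomedullin. APLNR was at 13.1 to 63.4 CPM in HGA (median 38.6) and 3.59 to 23.0 CPM in primary AGASAC (median 9.56), 3.18-fold higher (log2FC 1.67 ± 0.35, SE, adjusted p = 0.00425). RAMP2 was at 7.42 to 58.9 CPM in HGA (median 22.5) and 1.92 to 14.6 CPM in primary AGASAC (median 8.20), 3.51-fold higher (log2FC 1.81 ± 0.35, SE, adjusted p = 0.0014). In RAMP2 only HGA 10 lay within the range of the AGASAC, whereas in APLNR HGA 6, 9 and 10 did.

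CALCRL itself did not pass the test, with a log2FC of −0.74 ± 0.71 (SE, adjusted p = 1). It was at 2.18 to 41.4 CPM in HGA (median 8.11) and 2.66 to 165 CPM in primary AGASAC (median 7.91), and the value of 165 CPM came from AGASAC 2 alone. The log2FC of CALCRL was 0.75 without AGASAC 2 and 0.73 by DESeq2, neither past the test. The ligand ADM, adrenomedullin, was counted among 14 tested hypoxia genes, of which 7 were higher and 0 lower in HGA. These calls were 50% of those tested, where 25.1% of all genes were called. ADM was at 0 to 131 CPM in HGA (median 71.8) and 0 to 10.8 CPM in primary AGASAC (median 3.57), 21.8-fold higher (log2FC 4.45 ± 0.60, SE, adjusted p = 1.96e-05). HGA 10, with no count of ADM, was the only HGA below 34 CPM. The oxygen sensor EGLN3 was 18.9-fold, the glycolytic regulator PFKFB4 5.46-fold and the lactate dehydrogenase LDHA 3.45-fold higher, and LDHA and PFKFB4 had groups that did not overlap. S1PR1, the sphingosine 1-phosphate receptor that steadies the vessel barrier, had a log2FC of 1.32 ± 0.48 (SE, adjusted p = 0.258).

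Of the transcription factors, only SOX7 passed the test. SOX7 belongs with SOX17 and SOX18 to the SOXF family of vessel development, but it is not confined to endothelium. It was at 46.6 to 194 CPM in HGA (median 81.2) and 0 to 35.8 CPM in primary AGASAC (median 4.48), so the groups did not overlap, and AGASAC 5 was the high AGASAC. SOX7 was 13.1-fold higher in HGA (log2FC 3.71 ± 0.59, SE, adjusted p = 0.000166). Its relatives had smaller values that did not pass, a log2FC of 1.08 ± 0.45 (SE, adjusted p = 0.538) for SOX17 and of 1.46 ± 0.42 (SE, adjusted p = 0.0646) for SOX18. SOX18 was called without AGASAC 6 (log2FC 1.69, adjusted p = 0.0203). ERG, the factor that holds endothelial cells in their state, had a log2FC of 0.40 ± 0.42 (SE, adjusted p = 1), and GATA2, which is shared with blood and mast cells, one of 1.66 ± 0.83 (SE, adjusted p = 1).

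The lymphatic and sinusoidal members did not move together. PROX1, the factor that defines lymphatic endothelium and is also found in some epithelia, was the only member lower in HGA. It was at 0 to 8.63 CPM in HGA (median 4.19) and 1.62 to 72.2 CPM in primary AGASAC (median 10.6). AGASAC 5 at 72.2 CPM and AGASAC 11 at 35.3 CPM were the high samples, and AGASAC 1, 2, 6 and 9 lay within the range of HGA. PROX1 was 4.55-fold lower in HGA (log2FC −2.18 ± 0.59, SE, adjusted p = 0.0364), with an adjusted p of 0.0507 to 0.121 without any one of AGASAC 4, 5, 8 or 11 or HGA 1, 2, 5, 6 or 7, and a log2FC of −1.68 without AGASAC 5. LYVE1, the hyaluronan receptor of lymphatic vessels and of some macrophages, was at 1.31 to 16.7 CPM in HGA (median 7.90) and 0 to 6.32 CPM in primary AGASAC (median 2.05), with a log2FC of 1.67 ± 0.54 (SE, adjusted p = 0.145) that did not pass.

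PDPN, podoplanin of lymphatic endothelium and of many epithelial and stromal cells, and STAB1, a scavenger receptor of sinusoids and macrophages, had a log2FC of −0.10 and −0.33, neither past the test. MMRN1, multimerin of platelets and lymphatic endothelium, turned on 1 tumor. MMRN1 was at 1.75 to 20.7 CPM in HGA (median 7.09), at 0 to 5.21 CPM in 10 primary AGASAC and at 572 CPM in AGASAC 2. Its log2FC was −2.46 ± 1.22 (SE, adjusted p = 1) with all tumors and 2.599 with an adjusted p of 0.0247 without AGASAC 2. STAB2, the sinusoidal relative of STAB1, was at 0 in 7 of 10 HGA and reached at most 1.29 CPM in a primary AGASAC, near the limit of counting. The macrophage markers, in which LYVE1 and STAB1 could also be found, summed to 106 to 419 CPM in HGA and 204 to 611 CPM in primary AGASAC. Lower in HGA was 1 of 10 tested markers (C1QB), where 12.5% of all genes were called lower.

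Of the leukocyte adhesion molecules, VCAM1 and ICAM1 were tested and neither passed. ICAM1, the ligand of leukocyte integrins that inflamed endothelium and other cells display, was at 1.31 to 15.1 CPM in HGA (median 8.53) and 7.49 to 27.9 CPM in primary AGASAC (median 12.9), with a log2FC of −0.80 ± 0.35 (SE, adjusted p = 0.627). VCAM1 had a log2FC of 0.35 ± 0.43 (SE, adjusted p = 1). Of 4 tested leukocyte ligands of these molecules 1, the integrin chain ITGAM, was lower in HGA (log2FC −4.77, adjusted p = 0.00138). Of 8 tested NF-kappaB and cytokine genes NFKBIA was higher, at a log2FC of 2.11, and IRF1 and CCL2 were lower, at −2.24 and −1.74. The calls were 25% of the tested ligands and 37.5% of the tested NF-kappaB and cytokine genes, where 25.1% of all genes were called.

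A further list of 34 endothelial genes outside the 46 was read for the same contrast. Among the 24 of it that were tested, 8 were higher and 3 lower in HGA. These calls were 45.8% of those tested, where 25.1% of all genes were called. GNG11, a G protein subunit, was at 606.5 ± 421.7 CPM (SD, n = 10) in HGA and 20.01 ± 9.05 CPM (SD, n = 11) in primary AGASAC, 30.2-fold higher, and CYYR1 was 16.6-fold higher. The protocadherin PCDH17 was 7.65-fold lower in HGA. CLEC14A, a lectin of the endothelial surface, was at 3.06 to 30.9 CPM in HGA (median 14.9) and 7.80 to 643 CPM in primary AGASAC (median 178), 17.1-fold lower in HGA (log2FC −4.10 ± 0.54, SE, adjusted p = 1.17e-05). AGASAC 2, at 7.80 CPM, was the only primary AGASAC within the range of the HGA, and it was the tumor with the high MMRN1 and CALCRL.

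The second comparison asked how the endothelial genes of a lymph node metastasis compare with those of the primary tumor of the same dog. None of 34 tested members passed the test by edgeR's quasi-likelihood test, and none had an unadjusted p under 0.05. This fit held no term for the dog, so its p-values do not use the pairing. Among all 12629 genes tested, 0% were called and 1.15% had an unadjusted p under 0.05. DESeq2 and the fit with the dog as a block also called 0 members. The log2FC of metastasis over primary tumor ran from −2.15 for CALCRL to 1.15 for SELE, with a median of 0.06. Both ends rested on single samples: the log2FC of CALCRL was 0.28 without the primary tumor of dog 2 and −3.60 without its metastasis, and that of SELE was 2.57 without the primary tumor of dog 4 and 0.47 without metastasis 2.

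Dog by dog, 3 members were lower and 1 was higher in all 4 metastases, out of 45. The 3 lower members were among the 34 tested (8.82%) and the higher one was not, while 5.82% of all genes tested were lower and 6.52% higher in all 4 metastases, so these counts are no result about the members. VWF was at 76.5, 64.7, 33.4 and 54.2 CPM in the primary tumors of dogs 1 to 4 and at 46.3, 57.5, 25.4 and 33.3 CPM in their metastases. RAMP2 was at 7.77, 12.3, 8.20 and 9.95 CPM and then at 6.06, 10.3, 6.35 and 9.19 CPM. Neither gene passed the test, at a log2FC of −0.49 for VWF and −0.25 for RAMP2 (adjusted p = 1 in both). CALCRL was at 12.5, 165, 2.93 and 11.1 CPM in the primary tumors and 7.02, 30.0, 2.54 and 2.22 CPM in the metastases. GATA2 was at 0, 2.92, 1.17 and 0 CPM in the primary tumors and 1.60, 15.6, 2.86 and 0.317 CPM in the metastases. Most of these values of GATA2 are near the limit of counting, apart from metastasis 2.

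**Figure D4:**
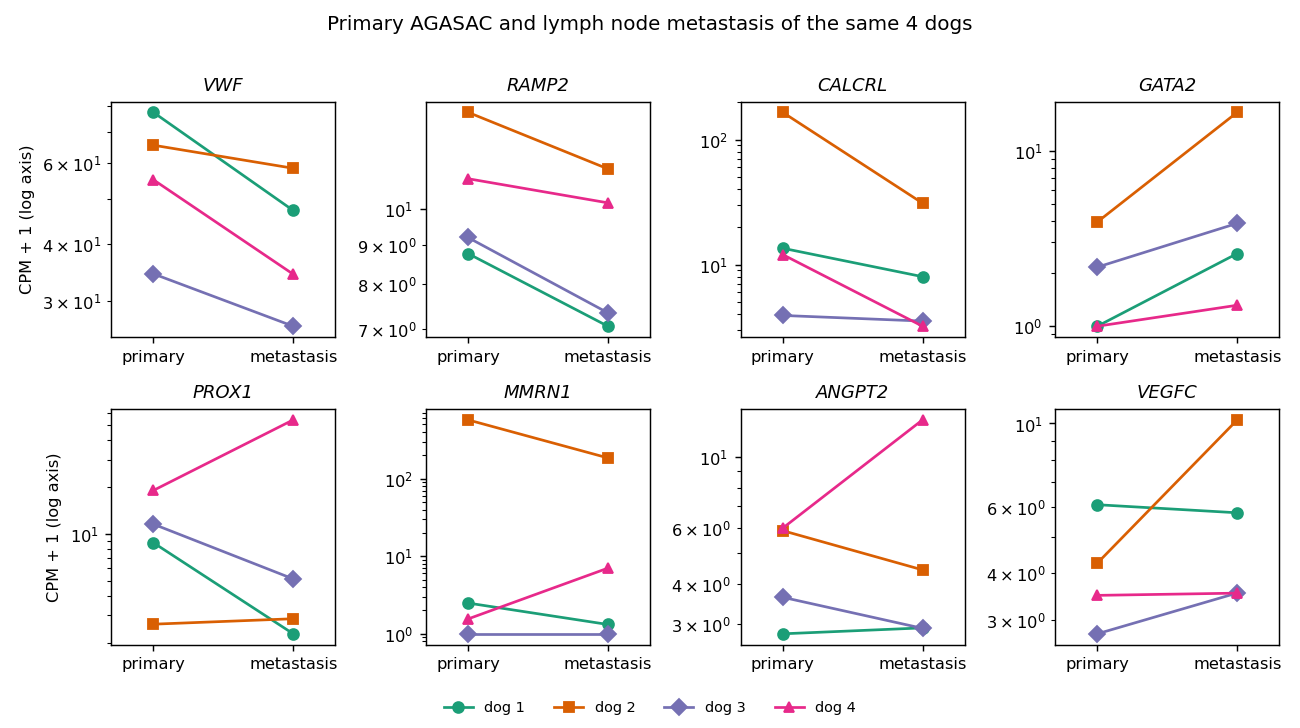
Level in CPM + 1 (log axis) of 8 members in the primary AGASAC and the sublumbar metastasis of dogs 1 to 4; each line joins the 2 samples of a dog. VWF, RAMP2 and CALCRL end below and GATA2 above the primary tumor on all 4 lines, while MMRN1 of dog 2 is far above the other dogs in both samples, at 572 and 184 CPM.

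Single genes stood out in both samples of dog 2. MMRN1 was at 572 CPM in the primary tumor and 184 CPM in the metastasis of dog 2, and at 0 to 1.49 CPM in the primary tumors and 0 to 6.02 CPM in the metastases of the other 3 dogs. CALCRL was also highest in both samples of dog 2, and CLEC14A was lowest in both, at 7.80 and 17.7 CPM against 312 to 643 CPM in the other primary tumors and 358 to 612 CPM in the other metastases of these dogs. PROX1 was at 7.77, 1.62, 10.5 and 18.0 CPM in the primary tumors and at 1.28, 1.84, 4.13 and 53.0 CPM in the metastases. Dog 4 had the highest PROX1 in both samples. ANGPT2 was at 1.91, 3.43, 1.90 and 12.0 CPM in the metastases, also highest in dog 4. Metastasis 2 held 13062 CPM of fibroblast markers against 762.3 to 3012 CPM in the other 3, and its part in the 29 members that were highest there was not tested.

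The cells of the lymph node and of other tissues were measured by marker lists in the same way. The B cell markers summed to 21.1 to 44.0 CPM in the metastases, 13.2 to 41.2 CPM in primary AGASAC and 6.27 to 68.5 CPM in HGA. T cell markers summed to 52.6 to 80.6 CPM in the metastases, 17.3 to 134 CPM in primary AGASAC and 2.46 to 64.7 CPM in HGA. Against the primary tumors of the same dogs, all 7 tested T cell markers had a positive log2FC, where 50.3% of all genes did. The groups did not overlap in 3 of these 7 (42.9%), where 1.17% of all genes did not overlap, and 0 were called. Of 3 tested B cell markers, 2 had a positive and 1 a negative log2FC, and 0 had groups that did not overlap. The share of node cells in the metastases was not tested. The markers of lymph node stroma, of which CCL21 is one, summed to 3.19 to 15.9 CPM in the metastases, 1.2 to 25.6 CPM in primary AGASAC and 11.4 to 139.6 CPM in HGA. Smooth muscle markers summed to 74.3 to 742 CPM in the metastases, 70.2 to 656 CPM in primary AGASAC and 102 to 310.4 CPM in HGA, and the platelet and mast cell markers to at most 5.81 and 40.8 CPM in any sample.

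The third comparison set the metastases against HGA. It shared the HGA samples with the first, so the values of both are given side by side and not as support for each other. Of 44 tested members, 4 were higher in HGA (9.09%) and 0 were lower by edgeR's quasi-likelihood test, where 8.40% of all 13195 genes were called higher and 7.69% lower, 16.1% in all. The median log2FC of HGA over metastasis was 1.27 in the members and 0.02 in all genes. The count of calls in the members was thus close to the background, unlike the median. With Benjamini-Hochberg adjustment 14 members (31.8%) and 26.8% of all genes passed. Groups did not overlap in 5 members (11.4%) and in 16.2% of all genes. With libraries scaled by size alone, the median of all genes shifted by −0.28, 36.3% in place of 52.2% of all calls were higher in HGA, and 4 members were again called higher.

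VEGFC was at 4.79, 9.22, 2.54 and 2.54 CPM in metastases 1 to 4, all far below the lowest HGA at 70.2 CPM. The difference was 21.6-fold (log2FC 4.43 ± 0.39, SE, adjusted p = 4.19e-06), beside 29.4-fold over the primary tumors. SOX7 was at 4.47, 5.27, 0.317 and 6.02 CPM in the metastases, also below every HGA, and 22.3-fold higher in HGA (log2FC 4.48 ± 0.57, SE, adjusted p = 0.00018), beside 13.1-fold. VEGFB was at 2.23, 15.8, 35.6 and 14.3 CPM, where metastasis 3 came within 1 CPM of HGA 10, and 12.5-fold higher in HGA (log2FC 3.65 ± 0.64, SE, adjusted p = 0.00388), beside 9.16-fold.

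VWF was at 46.3, 57.5, 25.4 and 33.3 CPM in the metastases, under the lowest HGA at 86.5 CPM. It was 3.28-fold higher in HGA than in the metastases (log2FC 1.71 ± 0.33, SE, adjusted p = 0.00825), beside 2.00-fold over the primary tumors, and the call was lost without metastasis 3 (log2FC 1.54, adjusted p = 0.0520). PLVAP was at 8.93, 18.7, 14.0 and 22.5 CPM in the metastases, below every HGA, with an adjusted p of 0.0593 and a log2FC of 2.14. PLVAP was called without HGA 5 or without HGA 10. TIE1 was at 1.60, 16.6, 6.98 and 4.44 CPM in the metastases and was called without metastasis 2, at a log2FC of 2.64 (adjusted p = 0.0294). APLNR and RAMP2 were called without HGA 10. TEK was at 1.91, 10.0, 2.22 and 0.951 CPM in the metastases, with metastasis 2 the high sample.

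The 4 leukocyte adhesion genes all had a negative log2FC, from −0.38 for VCAM1 to −1.93 for SELE, and none passed. ICAM1 was at 4.15, 63.5, 8.57 and 28.9 CPM in the metastases, at an adjusted p of 0.411 and a log2FC of −1.65. PROX1 had a log2FC of −1.90 with all samples and 0.71 without metastasis 4. Of the further lists, CCL21 and ADAMTS3 were the 2 of 7 lymphatic genes that were higher in HGA than in the metastases, where ADAMTS3 had at most 1 count in a sample. JAG1, EFNB2 and UNC5B were the 3 of 16 receptor, Notch and arteriovenous genes, ADM, LDHA and PFKFB4 the 3 of 15 hypoxia genes, and 2 of 30 other endothelial genes were higher (GNG11 and CYYR1) and 2 lower (CLEC14A and CRIP2). IRF1 and CCL2 were lower in HGA among 11 NF-kappaB and cytokine genes, and 0 of 5 leukocyte ligands passed, of which 4 had an unadjusted p under 0.05. In the order given, the calls were 28.6%, 18.8%, 20%, 13.3% and 18.2% of the lists with a call, where 16.1% of all genes were called.

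The last question was whether tumors with more VEGF ligand had more of the genes of sprouting or of the endothelium as a whole. Over 16 relations of VEGFA or VEGFC with ANGPT2, ESM1, APLN or the summed level of 14 endothelial surface genes, each within HGA or within primary AGASAC, 1 passed after Benjamini-Hochberg adjustment. In the 11 primary AGASAC, VEGFA rose with the endothelial sum, at Pearson's r = 0.895 (permutation p = 7e-05, adjusted p = 0.00112) and Spearman's rho = 0.927 (permutation p = 0.00015, adjusted p = 0.0024). Without AGASAC 1 and 8, the tumors farthest from the median of VEGFA, r was 0.735. Among the 7 primary AGASAC of the file-naming series that held most of them, r was 0.885 (permutation p = 0.00106) and rho 0.964 (permutation p = 0.00285). This subset was chosen after the relation was seen. The extraction batches held at most 3 primary AGASAC each, too few for a value. Of the primary AGASAC, tumor 8 was the lowest in 16 of 45 members and tumor 6 the highest in 13 of 45. These tumors also held the lowest and the highest sum of pericyte markers, at 41.5 and 133 CPM. Whether the relation is particular to VEGFA or to endothelial genes was not tested.

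In HGA the same relation had r = 0.298 (permutation p = 0.415, adjusted p = 0.738), and the difference between the tumor types was not tested. VEGFA and ESM1 had r = 0.876 in HGA (permutation p = 0.0122, adjusted p = 0.0810) with rho = 0.321, and VEGFA and APLN, the ligand of APLNR, r = 0.766 (permutation p = 0.0152, adjusted p = 0.0810) with rho = 0.612. Without HGA 4 alone, a fit chosen after the relation was seen, r was 0.397 for ESM1 (permutation p = 0.233) and 0.381 for APLN (permutation p = 0.281). Without HGA 4 and HGA 10, the tumors farthest from the median of VEGFA, r was −0.17 for ESM1 and −0.0123 for APLN, so both relations rested on these 2 tumors.

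**Figure D5:**
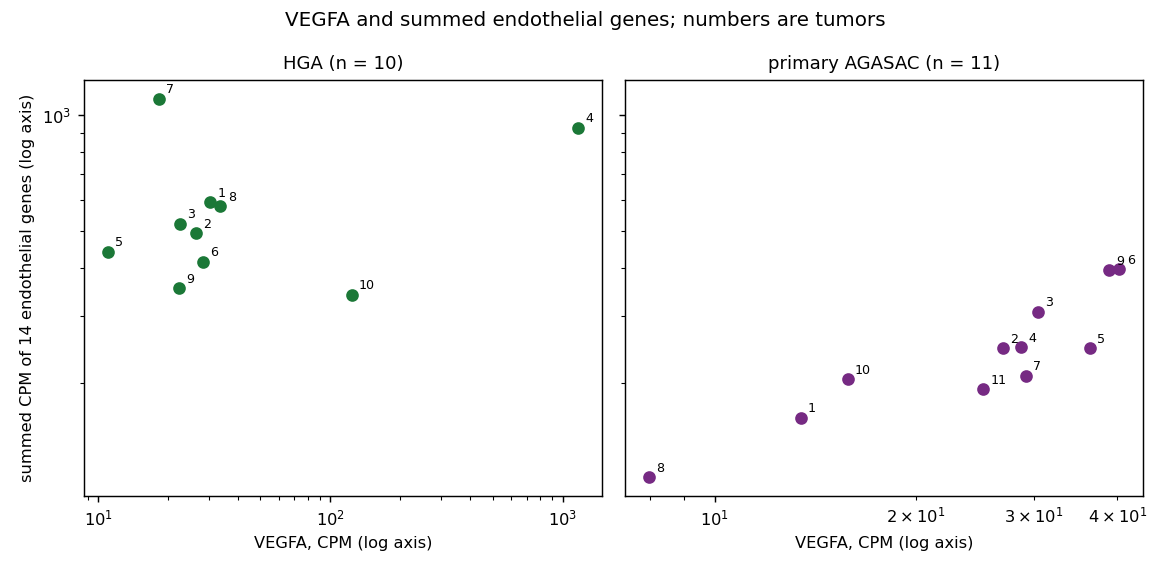
Summed level in CPM of 14 endothelial surface genes against the level of VEGFA in CPM (both log axes) in HGA and primary AGASAC; each point is a tumor and carries its number. The 11 primary AGASAC rise together (r = 0.895), while in HGA (r = 0.298) tumor 4 lies alone at 1165 CPM of VEGFA.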

How the data were processed

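RNA of 25 FFPE samples was isolated with the PureLink FFPE kit and sequenced with the QuantSeq 3′ FWD kit by its low-quality protocol. The authors trimmed reads with Cutadapt, aligned them to CanFam3.1 with STAR and counted them with featureCounts in rounds, of which the second extended gene ends at the 3′ side. They kept multi-mapped reads, split evenly over their places, so counts of genes with near copies are uncertain. They deposited whole counts per gene without normalization. Versions are not given in the sources used here. It further holds a signal that the authors made by dividing counts by a size factor, the log2 fold change the authors deposited for their own comparison with its error, and the p-value the authors deposited with it. None of these was used. Columns of samples outside the series numbered 0.

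The analysis was run with edgeR 4.0.16 under R 4.3.3 (filterByExpr by group, minimum count 10, minimum total 15, TMM factors, quasi-likelihood test, Benjamini-Yekutieli adjustment over all genes tested). SE is the log2FC divided by the root of F. The HGA were compared with the primary AGASAC, the metastases with the primaries of their 4 dogs, and the HGA with the metastases. None of these main fits held a term for the dog. TMM factors for the CPM came from all 25 samples together. Correlations used log2(CPM + 1) and 100000 two-sided permutations (scipy 1.17.1). Tests were checked on simulated counts. The lowest chi-square per degree of freedom between samples of a group was 12.2, 24.7 and 32.6, so 0 samples were duplicates. The metastasis and the primary tumor with the same number come from 1 dog by the labels, and their deviations correlated at 0.422 to 0.699 in 4 of 4 dogs. Primary tumors differ in breed, age or sex by the labels, so p-values measure the spread between dogs. Alternatives were RLE or library size in place of TMM, other count filters, DESeq2 1.42.0, Benjamini-Hochberg adjustment, 1 fit over 25 samples, terms for extraction batch, RNA integrity or neutering, fits within a batch, a replicate block and leaving out each sample.

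Members, lists and tests were chosen with earlier results of these data known. Values are given for all members called in a comparison, for the markers PECAM1, VWF, CDH5, TEK, TIE1, CLDN5, PROX1 and LYVE1 and for the VEGF and angiopoietin ligands, and for up to 4 called genes of each other list with the largest log2FC. Other genes were named after their values were seen. LMO2 of the members and a few genes of the lists, among them KLF2, FDCSP, PF4 and TPSAB1, were not analysed here. Coordinates and sequences are not given, because only an annotation of UU_Cfam_GSD_1.0, a different assembly, was given.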

Additional observations from a re-analysis of the deposited data

Results flagged for a closer look

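In 90 pairs of a member and a group of 4 to 10 samples, 19 had a highest sample that lay apart from the others by Dixon's criterion. The criterion was applied to CPM without a log, and the pairs share libraries, so the count has no known chance rate. The 11 primary AGASAC were too many for the criterion and were not tested, and there AGASAC 2 held MMRN1 at 572 CPM and CALCRL at 165 CPM, where the next highest AGASAC had 5.21 and 15.98 CPM. Of the 19 flagged pairs, 12 were in HGA, 6 of them in HGA 4, and 7 were in the metastases, 5 of them in metastasis 2. All values below are CPM, with the next highest sample of the group in parentheses.

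In HGA 4, the shallowest library, VEGFA was at 1165 (124), ESM1 at 351 (38.4), NRP1 at 226 (74.0), EMCN at 122 (43.3), APLN at 76.5 (14.0) and ROBO4 at 46.4 (10.0). In HGA 7, VWF was at 282 (153), PECAM1 at 149.5 (79.4), PTPRB at 118 (48.9), NOS3 at 30.3 (15.7) and STAB1 at 25.8 (13.2). In HGA 10, NRP2 was at 235 (100.3).

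In metastasis 2, MMRN1 was at 184 (6.02), PDPN at 37.7 (7.98), GATA2 at 15.6 (2.86), TEK at 10.0 (2.22) and SELP at 10.0 (1.91). In metastasis 4, PROX1 was at 53.0 (4.13) and ANGPT2 at 12.0 (3.43).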

How the results depend on the processing

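Between HGA and primary AGASAC 14 members were called. The number was 5 with at least 10 counts in every sample, 22 with Benjamini-Hochberg adjustment, 9 with a term for extraction batch, 8 with one for neutering, 2, 3 and 2 within extraction batches 5, 6 and 8 and 5 within the larger series of HGA files. It was 13 with RLE, 10 with library size alone, 11 without a filter, 17 with DESeq2, 15 in 1 fit over 25 samples, 12 with a term for RNA integrity and 10 to 16 without 1 tumor. Between HGA and the metastases 4 were called, 10 with DESeq2, 14 with Benjamini-Hochberg adjustment and 3 to 7 without 1 sample (7 without HGA 10). The share of all genes called is given above only for Benjamini-Hochberg adjustment and the fits within a batch or series. For the other alternatives, these counts do not show whether the members moved more than all genes did. The other count filters also changed which genes were tested, and the fit with a term for extraction batch kept only batches that held both tumor types. Between metastases and primary tumors 0 were called under every alternative run. ANGPT2, APLNR, ENG, PLVAP, RAMP2, SOX7, TIE1, VEGFB and VEGFC kept their call between HGA and primary AGASAC in each of the fits without 1 tumor.

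With the replicate number as a block, 9 members were called between HGA and primary AGASAC and 2 between HGA and the metastases. These fits kept only the replicate numbers found in both groups, 10 and 4 of them, so they held fewer samples than the main fits. The share of all genes called in them is not given. The numbers pair nothing there, with correlations of −0.0598 to 0.0270 and −0.0333 to 0.00788 and 0 pairs over 0.1, and no sample correlated best with its own number. In the dogs with both samples, the pairing by dog called 0 and turned the log2FC of TIE1 to −0.085, of PROX1 to −0.34 and of VEGFB to −0.29.

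Directions turned between HGA and primary AGASAC for PECAM1 (−0.26) and ANGPT1 (−0.36) within extraction batch 5, for VEGFA within batch 6 (−0.59) and batch 8 (−0.13), and for the pericyte gene ABCC9 within batch 6 (−0.18). Other members also turned: CALCRL (1.46) and VCAM1 (−0.20) within batch 5, CD34 (−0.28), ESM1 (−0.11), ERG (−0.75) and VCAM1 (−0.064) within batch 6, NRP2 (−1.10), PDPN (1.07) and STAB1 (0.58) within batch 8, NRP2 (−0.24), PDPN (0.06) and STAB1 (0.51) within the series, MMRN1 within batches 5 (2.49) and 6 (1.40), with the replicate block (1.97) and with a term for extraction batch (0.91), and NRP2 with that term (−0.10). Without 1 tumor, CALCRL, MMRN1, PDPN (0.022, AGASAC 9) and NRP2 (−0.20, HGA 10) turned. Between metastases and primary tumors no member passed. The 1 fit over 25 samples set the 4 metastases against all 11 primary AGASAC, not only those of the same dogs, so its samples differed from the main comparison. In that fit PECAM1 (0.34), CDH5 (−0.048), CLDN5 (0.10), PROX1 (−0.29), VEGFB (−0.47) and ANGPT1 (0.47) had the other sign. Without 1 sample, the log2FC ran from −0.64 to 0.50 for TIE1, −0.64 to 0.37 for VEGFB, −0.68 to 0.42 for CLDN5, −0.18 to 0.20 for ANGPT1, −0.43 to 0.45 for CDH5, −1.16 to 0.56 for PECAM1, −1.97 to 1.19 for PROX1 and −0.55 to 0.70 for ANGPT2. For HGA against metastases PROX1 ran from −2.29 to 0.71. DESeq2, which replaces outlying counts, gave VEGFA 0.34, CALCRL 0.73 and MMRN1 2.41 between HGA and primary AGASAC. The cause of these changes was not tested. Depth limits STAB2, TEK, CCBE1 and the low values of GATA2, which lie near the count of 0.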
